A study of Mus musculus and Homo sapiens with 18 samples.

Results

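The genes described here are 10 enzymes and enzyme subunits of sphingolipid and ceramide metabolism, namely Sptlc1, Sptlc2, Kdsr, Cers2, Degs1, Sgms1, Sgms2, Ugcg, Smpd1 and Asah1. They were found by symbol in 3 RNA-seq count tables, in upper case in the human one, and all 10 were present and passed the filter on low counts in each table, Sgms2 in the lens only through the Qk-deleted group. The tables held 46882 genes for mouse lens, 54838 for mouse lens progenitor-like cells and 60880 for a human lens line, of which 12201, 20371 and 19049 were tested. Each system compared 3 libraries that lacked the RNA-binding protein quaking (Qk in mouse, QKI in human), or were labelled so, with 3 controls.

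In the lens, Qk-iCKO mice carried Nestin-CreERT2 with both Qk alleles floxed (QkL/L) and Ctrl mice carried Nestin-CreERT2 with 1 floxed allele (QkL/+). Tamoxifen was given on postnatal days 7 and 8 to both groups, so the controls share the Cre, the drug and 1 floxed allele, and whole lenses were taken on postnatal days 17 to 19. The recombinase was driven by a Nestin promoter, and RNA from all cells of the lens was measured together, so that fewer cells of a type and less RNA per cell cannot be told apart. NLPCs, neural stem cell-derived cells that resemble lens progenitors, came from culture: stem cells from Nestin-CreERT2;QkL/L pups on postnatal day 1 were expanded, deletion was induced with 100 nM 4-hydroxytamoxifen, and the cells were then grown with Noggin at 100 ng/ml for 6 days and with bFGF at 100 ng/ml, BMP4 at 20 ng/ml and BMP7 at 20 ng/ml for 12 days. The groups were named WT and Qk-/-, and 4-hydroxytamoxifen is recorded for Qk-/- only. On that record the drug, the Cre it activates and the deletion cannot be told apart in NLPCs. HLE-B3 is an immortalized human lens epithelial line, grown in 20% fetal bovine serum, in which QKI was knocked out with lentiviral CRISPR/Cas9 (QKI KO), with puromycin used to enrich infected cells, and compared with WT cells; whether the KO cells are 1 clone is not stated.

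Sphingolipids are membrane lipids built on a sphingoid base. Serine palmitoyltransferase joins serine to palmitoyl-CoA, a reductase and a ceramide synthase follow, and a desaturase yields ceramide, which then receives a phosphocholine head group to become sphingomyelin or a glucose to become glucosylceramide, the parent of most glycosphingolipids. In lysosomes acid sphingomyelinase and acid ceramidase take these lipids apart again. The membranes of human lens fibre cells are known to be unusually rich in sphingomyelin and dihydrosphingomyelin as well as in cholesterol.

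QKI recognises ACUAA followed by C or U in RNA, and 2 genes on which the results turn, Ugcg and Sgms2, are shown with the matches to that element in their annotated 3′ UTRs. The letters ACTAAC or ACTAAT, read on the transcript strand only, are in capitals.
Sgms2, mouse, GRCm38 chr3:131319366-131319395, minus strand: tgttacccACTAACTAACtgtactgtgttc
SGMS2, human, GRCh37 chr4:108831940-108831969, plus strand: ccccgggactttACTAATgagcttgttaaa
SGMS2, human, GRCh37 chr4:108834486-108834515, plus strand: gagtccacttgaACTAATtgtgaatttgtt
SGMS2, human, GRCh37 chr4:108835525-108835554, plus strand: cgatgaacaaaaACTAATctaattgccaag
UGCG, human, GRCh37 chr9:114695753-114695782, plus strand: acatggcgaggtACTAACtgagaaactttt

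The mouse Sgms2 stretch held 2 overlapping matches, and the 2440-base 3′ UTR of mouse Ugcg held none. Over the members, 5 of 10 mouse and 7 of 10 human 3′ UTRs held at least 1 match, against 30% of 20740 mouse and 33.3% of 19265 human protein-coding genes. UTRs differ in length, and per kilobase the members had 0.271 matches in mouse and 0.376 in human beside 0.362 and 0.352 over all genes. A match is a description of letters and not of binding.

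UGCG was also the only member whose change passed the test in the same direction in all 3 systems, so the 250 bases before its annotated human start are shown, with GGGCGG, the GC box, in capitals on either strand.
UGCG, human, GRCh37 chr9:114658844-114659093, plus strand: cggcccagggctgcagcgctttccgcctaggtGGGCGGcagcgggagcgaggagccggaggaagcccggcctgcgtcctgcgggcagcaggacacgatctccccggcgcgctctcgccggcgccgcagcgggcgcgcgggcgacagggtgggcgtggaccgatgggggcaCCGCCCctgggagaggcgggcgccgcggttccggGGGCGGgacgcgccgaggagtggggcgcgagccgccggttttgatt

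This window held 3 matches, was 78.4% G and C, and held neither CCAAT nor TATAAA on either strand. GGGCGG was found before 9 of the 10 human member genes and in 58.9% of 19807 human windows of the same length, whose median G and C content was 63.2%.

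Total counts ran from 10319320 to 16425331 per lens library, from 28154202 to 68243360 per NLPC library and from 69190864 to 81384471 per HLE-B3 library. Lens Qk-iCKO replicate 1 had the most extreme scaling factor (1.48, against 0.888 to 0.962 in the other lens libraries), and NLPC Qk-/- replicate 2 was the shallowest of its table and correlated least with the others. Levels are given as CPM, counts scaled to 1000000 per library by total counts and the TMM factor. QKI fell in HLE-B3, from 257 to 263 CPM in WT to 100 to 105 in QKI KO (log2 fold change -1.34, edgeR adjusted p = 1.85e-11). In the lens Qk stood at 116 to 127 in Ctrl and 86.7 to 106 in Qk-iCKO (adjusted p = 0.200, edgeR). In NLPCs Qk went against the label, at 2441 to 2673 in WT and 3070 to 3596 in the libraries labelled Qk-/- (log2 fold change 0.41, adjusted p = 0.0270, edgeR). The floxed exon is a small part of Qk, so a count over the whole gene does not check its deletion. By immunofluorescence, the paper reports that Qki protein was lost from the stem cells and NLPCs after deletion was induced. In lens cells of Qk-iCKO mice marked by a reporter of recombination, it reports an almost complete loss of the isoform Qki-5 and a smaller decrease of Qki-6. Crystallins and other lens fibre genes (a list of 10) summed to 327062 to 351164 CPM in Ctrl and 157977 to 290334 in Qk-iCKO lenses, with 1 of 9 tested called lower. The same list summed to 62.7 to 72.5 in WT NLPCs and 16.3 to 31.1 in the libraries labelled Qk-/-, with 1 of 3 called lower. In HLE-B3 it summed to 487 to 577 in WT and 877 to 1018 in QKI KO, with 1 higher and 1 lower of 4, and CRYAA and CRYBA1 had no count. The groups did not overlap in any system, and the part of this in the results below was not tested.

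Across the systems, 8 of the 10 members passed an adjusted p under 0.05 in at least 1 comparison and Sptlc1 and Cers2 in none. In the lens Sgms2 and Ugcg rose and no member fell, where 8.38% of all tested genes rose and 3.88% fell. In NLPCs the libraries labelled Qk-/- had more Kdsr and Ugcg and less Degs1 and Asah1 than WT, beside 4.74% and 5.96% of all tested genes. In HLE-B3 SGMS1, SPTLC2, SGMS2, UGCG and DEGS1 rose and KDSR, SMPD1 and ASAH1 fell, beside 17% and 16.3%. The median log2 fold change of the members was 0.26, -0.07 and 0.18 in lens, NLPC and HLE-B3, where that of all tested genes was 0.01, 0.04 and -0.02. The control and deletion libraries did not overlap for 5, 5 and 8 of the 10 members, against 35.3%, 35.2% and 44.6% of all tested genes.

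**Figure D1:**
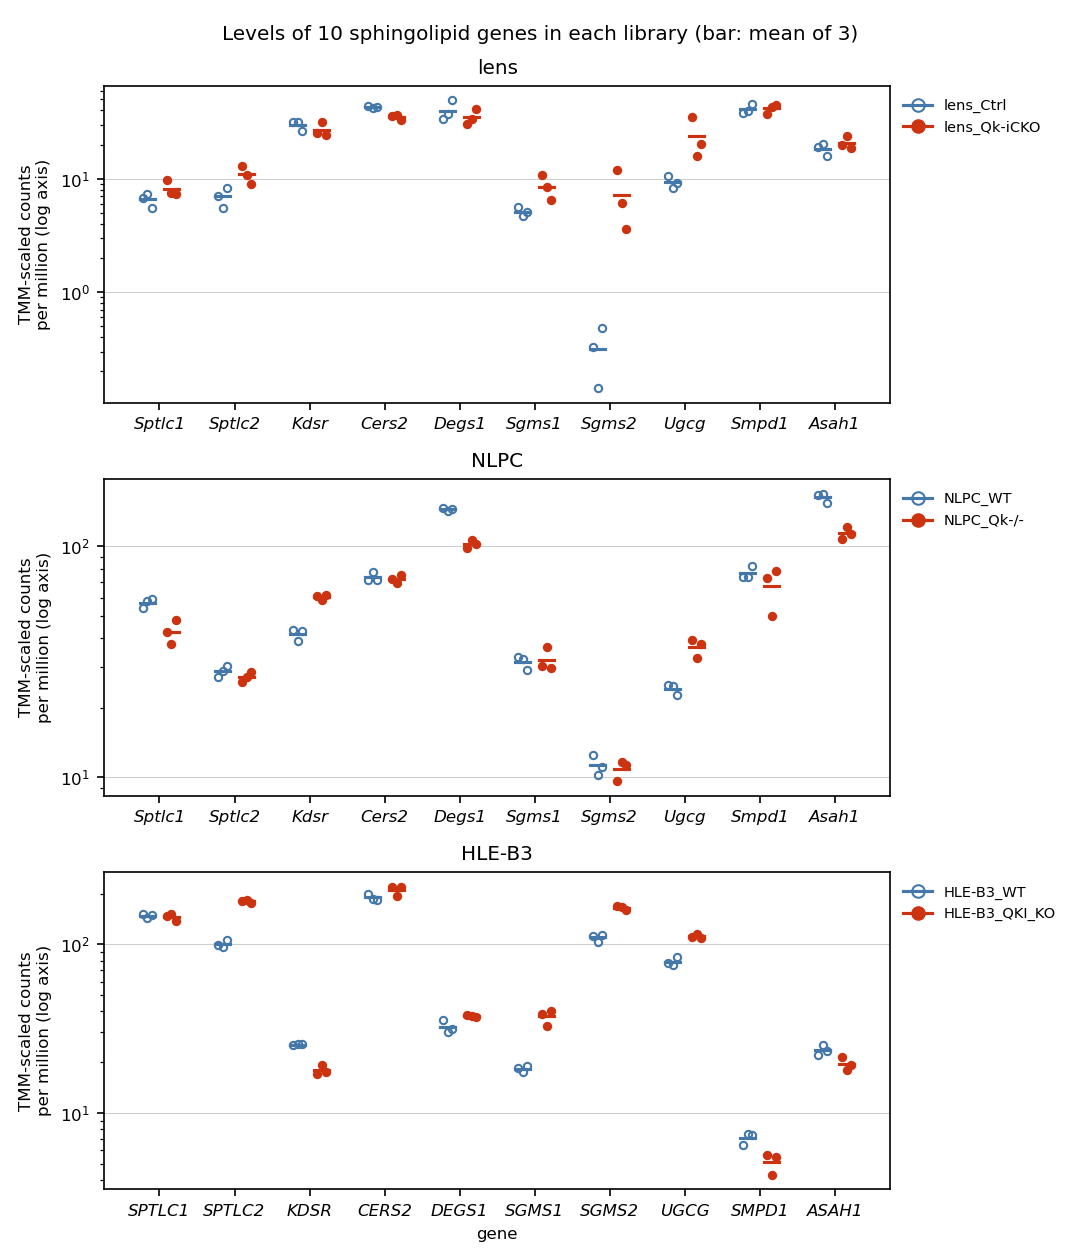
Level of each of the 10 genes in every library, in TMM-scaled CPM on a log axis, for lens (top), NLPC (middle) and HLE-B3 (bottom). Open blue circles are control libraries, filled red circles deletion libraries and bars the mean of 3; lens Sgms2 lies below 0.5 in every Ctrl lens and above 3 in every Qk-iCKO lens.

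Among the members are 3 genes for enzymes that put a head group on ceramide, Sgms1, Sgms2 and Ugcg. UGCG makes glucosylceramide, the first step towards gangliosides and other glycosphingolipids. In the lens Ugcg stood at 10.5, 8.26 and 9.12 CPM in Ctrl replicates 1 to 3 and at 35.4, 15.7 and 20.3 in Qk-iCKO replicates 1 to 3. All 3 Qk-iCKO lenses were above all Ctrl lenses, and replicate 1 was well above the other 2. Ugcg rose 2.58-fold (log2 fold change 1.37 ± 0.30 SE, adjusted p = 0.0268, edgeR quasi-likelihood test with Benjamini-Hochberg adjustment, as for all adjusted p-values below). Without Qk-iCKO replicate 1 the log2 fold change was 0.96 (adjusted p = 0.0182), and without Ctrl replicate 1, 2 or 3 it was 1.45, 1.27 and 1.34, with adjusted p = 0.0845, 0.106 and 0.101.

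In NLPCs Ugcg had 25, 24.9 and 22.6 CPM in WT and 39.3, 32.8 and 37.7 in the libraries labelled Qk-/-, with no overlap. It rose 1.52-fold (log2 fold change 0.60 ± 0.11 SE, adjusted p = 0.0155). The call was lost when WT replicate 1, 2 or 3 or Qk-/- replicate 1 or 3 was left out (adjusted p = 0.0850, 0.0723, 0.129, 0.0847 and 0.0595) and kept without Qk-/- replicate 2 (0.00113). In HLE-B3 UGCG stood at 77.7, 75.1 and 84.0 in WT and at 111, 115 and 109 in QKI KO. The groups were far apart beside their spread, and UGCG rose 1.42-fold (log2 fold change 0.50 ± 0.06 SE, adjusted p = 8.32e-06), a call kept in all 6 fits that left out a library.

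SGMS2 makes sphingomyelin, chiefly at the plasma membrane. In Ctrl lenses Sgms2 was close to the limit of detection, with 4, 2 and 7 reads, or 0.331, 0.142 and 0.480 CPM. In Qk-iCKO lenses it had 197, 63 and 36 reads, or 12, 6.08 and 3.63 CPM, so that the lowest Qk-iCKO lens was well above the highest Ctrl lens. As Sgms2 passed the filter only through the group where it was high, and could not be tested with at least 10 counts in every sample, its test is given as a description of the reads (log2 fold change 4.49 ± 0.60 SE, 95% interval 3.09 to 5.88, adjusted p = 0.00446). Summed over libraries, 13 reads against 296 gave a ratio of 25.3 with an exact interval of 14.6 to 48.1, which covers counting error only. The log2 fold change was 3.89 to 4.92 whichever lens was left out, in fits that share the filter rule and the few Ctrl reads.

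In NLPCs Sgms2 was at 12.5, 10.3 and 11.1 in WT and 9.61, 11.7 and 11.3 in the libraries labelled Qk-/-, and the groups overlapped (log2 fold change -0.05, 95% interval -0.39 to 0.28, adjusted p = 0.844). In HLE-B3 SGMS2 stood at 112, 104 and 114 in WT and 168, 167 and 160 in QKI KO. It rose 1.5-fold (log2 fold change 0.58 ± 0.06 SE, adjusted p = 9.21e-07). In the annotation 15.7% of the exon bases of SGMS2 are shared with CYP2U1-AS1 on the other strand, and while the libraries were stranded, the strand setting of the counting is not given in the sources used here.

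SGMS1, the sphingomyelin synthase of the Golgi, moved in the same direction in lens and HLE-B3 but passed the test in HLE-B3 alone. In Ctrl lenses Sgms1 stood at 5.63, 4.70 and 5.07 CPM, and in Qk-iCKO lenses at 10.7, 8.4 and 6.45. The groups did not overlap, and the log2 fold change was 0.74 ± 0.22 SE with adjusted p = 0.0717. It passed without Qk-iCKO replicate 3 (0.90, adjusted p = 0.0340). In NLPCs Sgms1 had 29.2 to 33.3 in WT and 29.7 to 36.6 in the libraries labelled Qk-/- (log2 fold change 0.03, adjusted p = 0.920). In HLE-B3 SGMS1 was at 18.5, 17.4 and 19 in WT and 38.8, 33.0 and 40.3 in QKI KO. It rose 2.04-fold (log2 fold change 1.03 ± 0.09 SE, adjusted p = 1.51e-07).

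The share of each sphingomyelin synthase in their summed CPM, which is not adjusted for transcript length, differed between systems. Sgms2 made up 2.94% to 8.64% of the Sgms1 and Sgms2 sum in Ctrl lenses and 36.0% to 53.0% in Qk-iCKO lenses. In NLPCs Sgms2 took 24.0% to 27.6% in WT and 24.1% to 27.6% in the libraries labelled Qk-/-. In HLE-B3 SGMS2 took 85.6% to 85.8% in WT and 79.9% to 83.5% in QKI KO, the other direction from the lens.

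**Figure D2:**
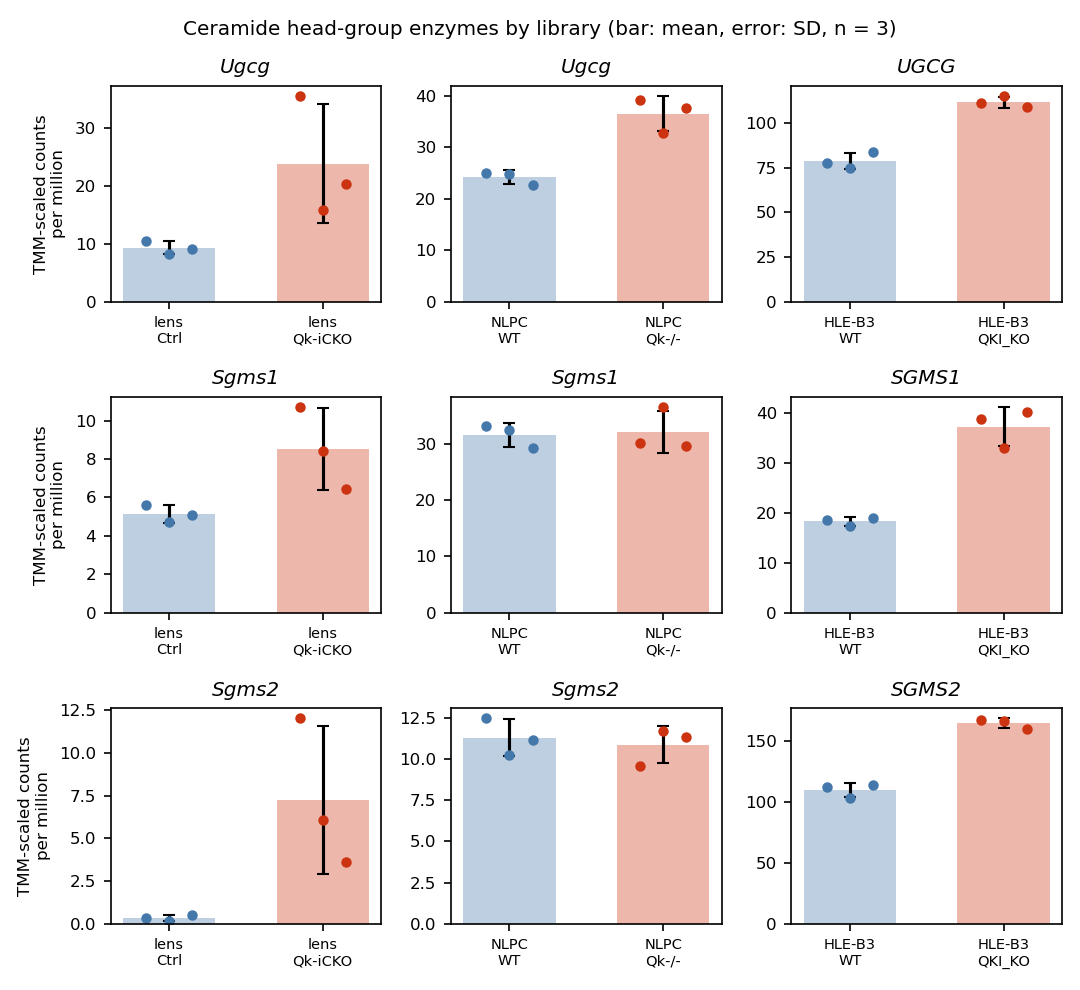
CPM of Ugcg, Sgms1 and Sgms2 (rows) in lens, NLPC and HLE-B3 (columns), on linear axes from 0 that differ between panels. Bars are means, error bars the SD of 3 libraries and points the libraries; the Qk-iCKO lenses spread most, with replicate 1 the highest for all 3 genes.

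Some markers of other cells also differed between Ctrl and Qk-iCKO lenses, and others did not. A list of 10 leukocyte markers summed to 1.74, 1.78 and 4.11 CPM in Ctrl replicates 1 to 3 and to 85.1, 72.1 and 93.5 in Qk-iCKO replicates 1 to 3. All 8 markers that could be tested were called higher, beside 8.38% of all tested genes. With so few Ctrl reads, most of these markers could meet the filter on low counts only with Qk-iCKO libraries. Their calls are thus a description of the reads. Markers of melanocytes and pigment epithelium summed to 4.25 to 9.27 in Ctrl lenses and to 134, 22.9 and 8.26 in Qk-iCKO replicates 1 to 3, and 0 of 4 of them passed the test by edgeR. Astrocyte and neural stem markers, a list of 6, summed to 46.0 to 59.1 in Ctrl and 59.8 to 98.8 in Qk-iCKO lenses, with 1 called higher, while the lens fibre list was lower, as given above. Photoreceptor markers, a list of 5, summed to 67.2, 517 and 1.78 in Ctrl and to 75.7, 31.4 and 12.7 in Qk-iCKO replicates 1 to 3. Endothelial and mural markers (19.2 to 32.1 in Ctrl, 19.9 to 26.5 in Qk-iCKO) overlapped between the groups, as did neuron markers (18.0 to 39.9 and 17.1 to 25.1). The part of all these cells in the changes of Ugcg, Sgms2 and the lysosomal genes below was not tested.

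De novo synthesis begins with serine palmitoyltransferase, of which SPTLC1 and SPTLC2 are subunits. Sptlc1 had 5.55 to 7.4 CPM in Ctrl and 7.36 to 9.78 in Qk-iCKO lenses (log2 fold change 0.32, adjusted p = 0.321). In NLPCs Sptlc1 stood at 53.8, 58.2 and 59.2 in WT and 42.7, 37.6 and 47.8 in the libraries labelled Qk-/-, with no overlap but an adjusted p of 0.0545 (log2 fold change -0.41 ± 0.11 SE). Sptlc1 was called lower there under DESeq2 (adjusted p = 0.0149), under both other filters on low counts and without Qk-/- replicate 2 (0.0244). In HLE-B3 SPTLC1 was at 143 to 151 in WT and 138 to 151 in QKI KO (log2 fold change -0.03, 95% interval -0.15 to 0.09, adjusted p = 0.772).

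SPTLC2, the catalytic partner, had 98.4, 96.7 and 106 CPM in HLE-B3 WT and 182, 182 and 176 in QKI KO. SPTLC2 rose 1.79-fold with the smallest adjusted p of any member (log2 fold change 0.84 ± 0.06 SE, adjusted p = 1.13e-08), while the interval of SPTLC1 in the same libraries lay around 0. In lenses Sptlc2 was at 7.03, 5.55 and 8.36 in Ctrl and 13.1, 10.8 and 8.97 in Qk-iCKO, with no overlap (log2 fold change 0.66 ± 0.22 SE, adjusted p = 0.0944). In NLPCs Sptlc2 had 27.2 to 30.5 in WT and 26.0 to 28.5 in the libraries labelled Qk-/- (adjusted p = 0.679).

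KDSR, which reduces the product of serine palmitoyltransferase, changed in opposite directions in the cultured systems. In NLPCs Kdsr stood at 43.5, 39.1 and 43.0 in WT and at 61.2, 58.3 and 61.6 in the libraries labelled Qk-/-, and rose 1.44-fold (log2 fold change 0.53 ± 0.09 SE, adjusted p = 0.0101). Leaving out WT replicate 1, 2 or 3 or Qk-/- replicate 1 or 3 ended the call (adjusted p = 0.0727, 0.0707, 0.0881, 0.0643 and 0.0509). In HLE-B3 KDSR was at 25.2, 25.5 and 25.6 in WT and 17, 19.1 and 17.6 in QKI KO, and fell by 0.51 ± 0.08 SE on the log2 scale (adjusted p = 0.000147). In the lens Kdsr had 26.3 to 31.9 in Ctrl and 24.2 to 31.9 in Qk-iCKO (adjusted p = 0.612).

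CERS2, the ceramide synthase for very long acyl chains, passed in no system with all libraries in the fit. Cers2 was at 43.4, 42.0 and 43.1 CPM in Ctrl and 35.8, 36.6 and 33.1 in Qk-iCKO lenses, tight groups with no overlap (log2 fold change -0.28 ± 0.12 SE, adjusted p = 0.173). It had 71.3 to 77.7 and 69.0 to 75.3 in NLPCs (adjusted p = 0.875), and CERS2 184 to 199 and 194 to 219 in HLE-B3 (log2 fold change 0.15, adjusted p = 0.0755). CERS2 passed in HLE-B3 without WT replicate 1 (adjusted p = 0.0301) or QKI KO replicate 2 (0.0154). The exons of CERS2 overlap SETDB1 and a further gene on the other strand over 37.2% of their bases.

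DEGS1, the desaturase that turns dihydroceramide into ceramide, fell in NLPCs and rose in HLE-B3. Degs1 stood at 146, 142 and 145 in WT NLPCs and at 97.9, 106 and 102 in the libraries labelled Qk-/- (log2 fold change -0.50 ± 0.08 SE, adjusted p = 0.00614). Without WT replicate 3 its adjusted p was 0.0571. DEGS1 had 35.8, 30 and 31.5 in HLE-B3 WT and 38.1, 37.7 and 37.3 in QKI KO, a small gap with no overlap (log2 fold change 0.22 ± 0.08 SE, adjusted p = 0.0403). The HLE-B3 call was lost without WT replicate 2 or 3 or QKI KO replicate 1, 2 or 3 (adjusted p = 0.152, 0.107, 0.118, 0.0769 and 0.0854). In lenses Degs1 had 33.8 to 49.1 in Ctrl and 30.1 to 41.0 in Qk-iCKO (adjusted p = 0.562).

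Of the lysosomal enzymes, ASAH1, acid ceramidase, splits ceramide into sphingosine and a fatty acid. Asah1 stood at 167, 169 and 154 in WT NLPCs and at 107, 121 and 113 in the libraries labelled Qk-/-, with no overlap. It fell by 0.52 ± 0.09 SE on the log2 scale (adjusted p = 0.00835), and the call was lost narrowly without WT replicate 1 (0.0513) or Qk-/- replicate 1 (0.0539). ASAH1 had 21.9, 25.4 and 23.2 in HLE-B3 WT and 21.3, 18.0 and 19.2 in QKI KO, groups that nearly touched (log2 fold change -0.27 ± 0.09 SE, adjusted p = 0.0341). That call was lost without WT replicate 2 or 3 or QKI KO replicate 2 or 3 (adjusted p = 0.165, 0.0623, 0.135 and 0.130). In lenses Asah1 had 15.8 to 20.1 in Ctrl and 18.8 to 23.7 in Qk-iCKO (adjusted p = 0.489).

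SMPD1, acid sphingomyelinase, had 6.42, 7.49 and 7.39 CPM in HLE-B3 WT and 5.61, 4.30 and 5.44 in QKI KO. SMPD1 fell by 0.47 ± 0.15 SE on the log2 scale (adjusted p = 0.0236), with the call lost without WT replicate 2 or 3 or QKI KO replicate 2 (adjusted p = 0.0858, 0.0669 and 0.104). Smpd1 was at 38.3 to 45.7 in Ctrl and 37.6 to 44.5 in Qk-iCKO lenses (log2 fold change 0.02, 95% interval -0.31 to 0.35). In NLPCs Smpd1 had 73.3 to 82.0 in WT and 72.9, 50.0 and 78.3 in the libraries labelled Qk-/- (adjusted p = 0.502), with replicate 2 low.

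**Figure D3:**
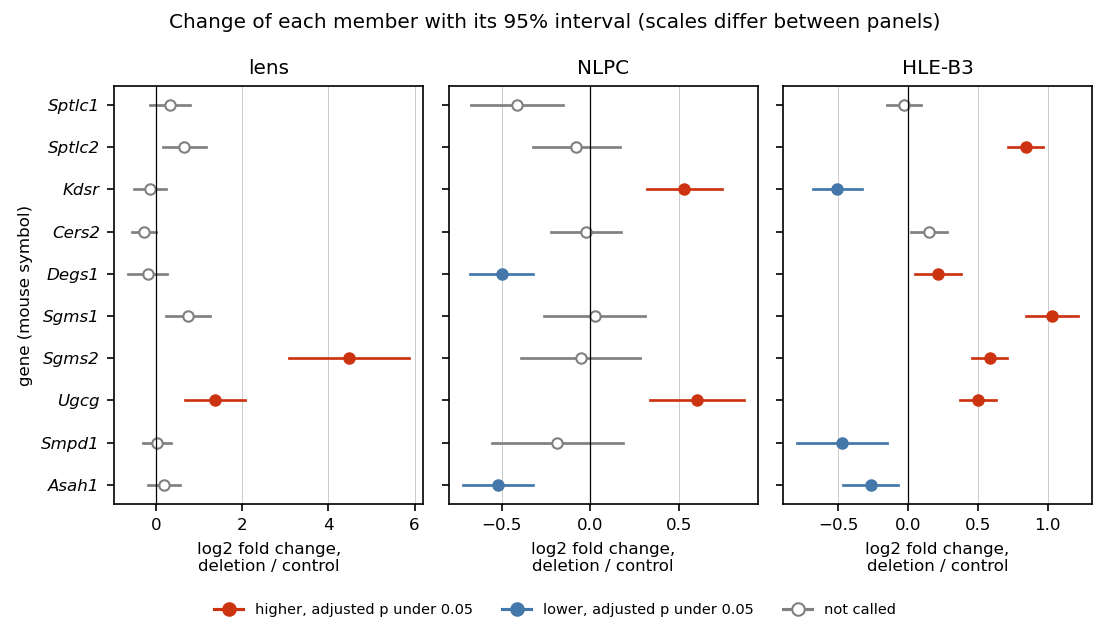
Log2 fold change of deletion over control for the 10 genes in lens, NLPC and HLE-B3, with 95% intervals; the axes differ between panels. Filled red points rose and filled blue points fell at an adjusted p under 0.05, and open grey points did not pass; Ugcg is red in all 3 panels, and Sgms2 reaches 4.49 in the lens.

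A joint fit of both mouse tables asked whether the effect differed between lens and NLPCs, over 16675 genes found in both and passing the filter, of which 8.53% passed. Of the members, Sgms2 and Kdsr passed. The log2 fold change of Sgms2 was lower in NLPCs than in lens by a difference of -4.48 (95% interval -5.80 to -3.15, adjusted p = 0.00100), and that of Kdsr was higher by 0.77 (0.39 to 1.15, adjusted p = 0.0185). The Kdsr difference was lost without lens Ctrl replicate 1 or 2 or NLPC WT replicate 2 (adjusted p = 0.0671, 0.0606 and 0.0535). For Ugcg, called higher in both systems, the difference of -0.68 (-1.40 to 0.05) had an adjusted p of 0.244. With replicate numbers as a block within each system, 3 members passed in place of 2, the third being Asah1, which had -0.61 and an adjusted p of 0.0639 without the block. The mouse systems also differ in depth and in how deletion was induced, and differences from HLE-B3 were not tested.

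Per kilobase of exon, the order of control levels among the members differed between systems. In Ctrl lenses Degs1 (15.4 ± 3.12 SD CPM per kilobase), Smpd1 (12.4 ± 1.16) and Cers2 (11.7 ± 0.208) were the most abundant and overlapped in their spread. Asah1, Kdsr, Sptlc1, Ugcg and Sptlc2 followed in this order from 5.39 to 0.861, with Sptlc1 (1.85 ± 0.265) and Ugcg (1.78 ± 0.218) within their spread. Sgms1 (0.487) and Sgms2 (0.0510) were the lowest. In WT NLPCs Degs1 (55.7 ± 0.815) and Asah1 (48.1 ± 2.40) stood at the top and Sgms2 (1.81 ± 0.179) again at the bottom. In WT HLE-B3 the order was led by CERS2 (40.9 ± 1.81), UGCG (17.3 ± 0.999), SGMS2 (14.4 ± 0.747) and SPTLC1 (14.0 ± 0.375), the last pair within their spread, and ended with ASAH1 (1.53 ± 0.115), the second most abundant member in NLPCs. The place of ASAH1 rests on its annotated exon length, 15378 bases in human and 3390 in mouse. By CPM alone ASAH1 (23.5) lay above SGMS1 (18.3) and SMPD1 (7.10) in WT HLE-B3. Genes were measured in separately normalized tables, so only the order is set side by side. Between species that order depends also on the exons annotated.

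In HLE-B3 the change of some members was close to that of the genes around them on the chromosome. The 50 nearest tested genes of KDSR, on chromosome 18, had a median log2 fold change of -0.49, and KDSR less that median was -0.01. The neighbours of ASAH1 had a median of -0.60, and ASAH1 less that median was 0.34, the other direction from its own change. SGMS2, on chromosome 4, had neighbours at 0.37 and a remainder of 0.21, and SMPD1 had neighbours at -0.24 and a remainder of -0.23. For UGCG, SPTLC2 and SGMS1 the neighbours lay at -0.09, 0.01 and 0.01, and the remainders of 0.59, 0.83 and 1.02 were as large as the changes themselves. The part of the neighbourhood in these changes was not tested.

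**Figure D4:**
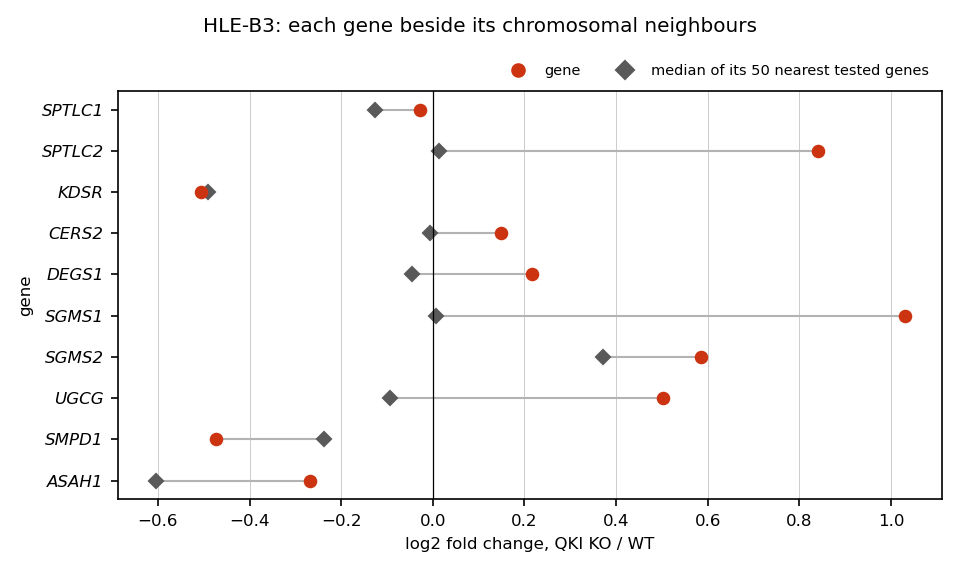
Log2 fold change of each member in HLE-B3 (red circles) and the median of its 50 nearest tested genes on the same chromosome (grey diamonds), joined by a line. KDSR lies on its neighbours' median of -0.49 and ASAH1 above its neighbours' -0.60, while SGMS1, SPTLC2 and UGCG lie far to the right of theirs.

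The other 56 genes of the pathway were grouped as synthesis, head groups and transfer, breakdown, and sphingosine-1-phosphate. In the lens 44 could be tested, and 11 rose and 1 fell, beside 8.38% and 3.88% of all tested genes, with a median log2 fold change of 0.25. None of 8 synthesis genes passed by edgeR, with 1 at an unadjusted p under 0.05. Of the breakdown genes 5 rose and 1 fell of 17, of the head group and transfer genes 3 rose of 9, and of the sphingosine-1-phosphate genes 3 rose of 10. These counts include B4galt6, a head group gene, and the sphingosine-1-phosphate genes Sphk1 and S1pr2. All of these met the filter on low counts only with Qk-iCKO libraries, so their calls are descriptions of the reads. Gm2a, the activator protein for ganglioside GM2, stood at 15.5, 14.7 and 13.4 in Ctrl and 40.3, 29.9 and 29.4 in Qk-iCKO lenses (log2 fold change 1.2 ± 0.17 SE, adjusted p = 0.00566). Psap, the saposin precursor, rose by 1.10 on the log2 scale (adjusted p = 0.0118).

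Acer2, an alkaline ceramidase of the Golgi, was the 1 gene that fell in the lens, by 1.28 on the log2 scale (adjusted p = 0.0304). Of the head group and transfer genes, B4galt5, which makes lactosylceramide from the product of Ugcg, rose by 0.96 (adjusted p = 0.00816) and Col4a3bp, the ceramide transfer protein, by 0.61 (0.0298). Among sphingosine-1-phosphate genes Sphk1, a sphingosine kinase, rose by 1.89 (0.0193) and Sgpl1, the lyase, by 0.81 (0.0207). The receptor gene S1pr2 had 2, 4 and 3 reads in Ctrl and 23, 12 and 17 in Qk-iCKO lenses, a ratio of 6.42 with an exact counting interval of 3.14 to 14.8 (log2 fold change 2.64, adjusted p = 0.00716). Sphk1 and S1pr2, like Sgms2, passed the filter in the lens only through the Qk-iCKO group, and their tests are given as descriptions of the reads. Sphk1 had as few as 9 reads in a Ctrl lens. Leaving out Ctrl replicate 1, 2 or 3 reduced the number of other pathway genes called in the lens from 12 to 3, 4 and 5.

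In NLPCs 48 of the 56 could be tested, and the libraries labelled Qk-/- had 4 of them higher and 7 lower, beside 4.74% and 5.96% of all tested genes. The lower ones were led by Samd8, a sphingomyelin synthase relative that makes ceramide phosphoethanolamine, at 153, 146 and 148 in WT and 63.2, 65.1 and 63.4 in Qk-/- (log2 fold change -1.22 ± 0.08 SE, adjusted p = 0.000242). The receptor genes S1pr1 and S1pr2 fell by 1.11 and 1.02, the glycolipid transfer protein gene Gltp by 0.99 and the fatty aldehyde dehydrogenase gene Aldh3a2 by 0.57 on the log2 scale. B4galt6 rose by 0.84, Acer3 by 0.83, St3gal5, which makes ganglioside GM3, by 0.75 and Cers5, a ceramide synthase, by 0.64. Astrocyte and neural stem markers, a list of 6, summed to 4904 to 5408 in WT and 3174 to 3653 in Qk-/-, with 3 lower and 1 higher, and oligodendrocyte markers to 70.9 to 85.5 and 34.8 to 37.6, with 1 of 4 lower. Neuron markers summed to 1246 to 1320 in WT and 1529 to 1667 in Qk-/-, with 2 of 5 higher. Their part in these changes was not tested. Without Qk-/- replicate 2, 18 of these genes were called, and without WT replicate 2 or 3 or Qk-/- replicate 1, 6, 5 and 7.

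In HLE-B3 46 of the 56 could be tested, and 6 rose and 11 fell, beside 17% and 16.3% of all tested genes. S1PR3, a sphingosine-1-phosphate receptor gene, fell from 71.2, 71.4 and 67.4 in WT to 17.5, 18.7 and 15.2 in QKI KO (log2 fold change -2.03 ± 0.08 SE, adjusted p = 1.72e-11). GALC, which removes galactose from galactosylceramide, had 139, 102 and 46 reads in WT and 6, 3 and 5 in QKI KO. The ratio was 0.0512, with an exact counting interval of 0.0277 to 0.0874. GALC passed the filter on low counts only through the WT group, where it was high. Its change is given as a description of the reads. UGT8, which makes galactosylceramide, rose by 1.02 (adjusted p = 0.000285). B4GALT5 rose by 0.66 (3.58e-07), while B4GALT6, the second lactosylceramide synthase gene, fell by 2.98 on the log2 scale (6.00e-07). B4GALNT1, GLA, SAMD8 and ACER3 fell by 0.65, 0.73, 0.37 and 0.35 on the log2 scale. B4GALT5 was thus called higher in lens and HLE-B3 beside UGCG, and in NLPCs the log2 fold change of B4galt5 was 0.15 (adjusted p = 0.640), while B4galt6 rose there. B4galt6 was also called higher in the lens (log2 fold change 2.17, adjusted p = 0.0389), the other direction from HLE-B3. It stood at 1.08, 1.07 and 0.823 CPM in Ctrl and 8.01, 2.99 and 2.12 in Qk-iCKO replicates 1 to 3. With as few as 12 reads in a Ctrl lens, B4galt6 met the filter on low counts there only with Qk-iCKO libraries. Its lens test is thus a description of the reads. In HLE-B3 neuron markers summed to 33.9 to 37.8 in WT and 17.1 to 21.3 in QKI KO, with 4 of 4 tested lower, and astrocyte and neural stem markers to 121 to 132 and 57.8 to 61.7, with 2 of 3 lower. The part of these markers' change in the results was not tested.

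**Figure D5:**
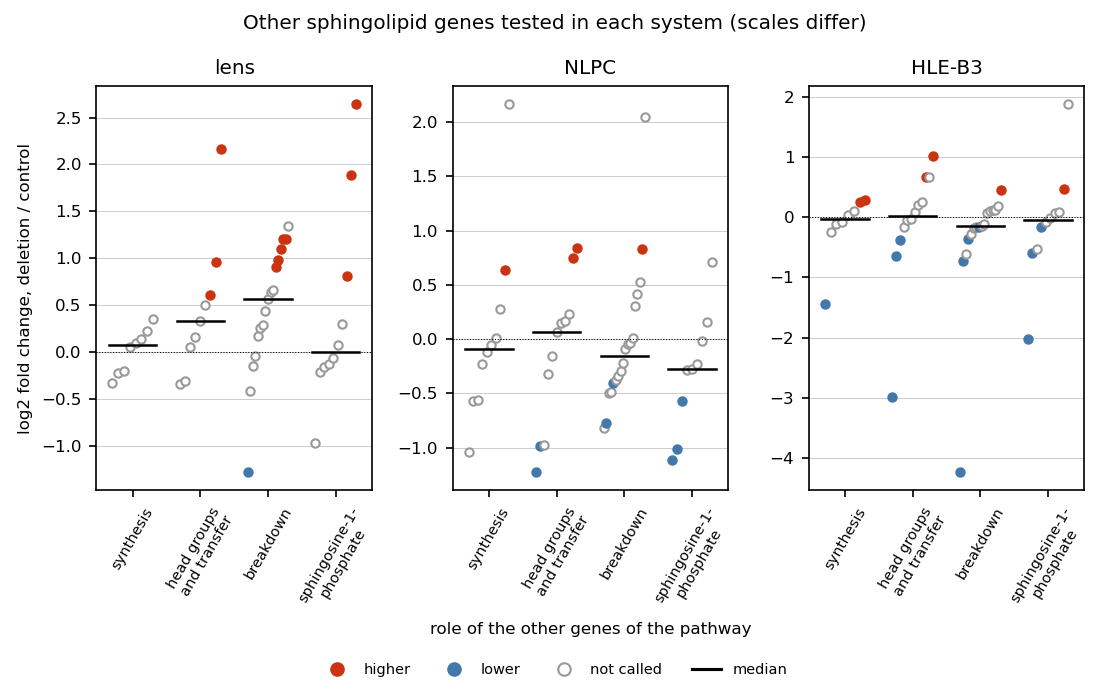
Log2 fold change of the other pathway genes that could be tested in lens, NLPC and HLE-B3, by role, with black bars at the medians; scales differ. Filled red and blue points rose or fell at an adjusted p under 0.05; in the lens 5 breakdown genes are red and 1 is blue.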

How the data were processed

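Total RNA from 18 libraries was sequenced after a stranded TruSeq preparation, and the authors aligned reads with STAR 2.6.1b to mm10 or hg19 and counted them per gene with HTSeq 0.11.0; the submitters' processing notes also name HISAT2 2.0.4 and featureCounts, and which table each made is not given in the sources used here. What was deposited for each library is whole-number counts of reads per gene, not normalized.

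Each table was fitted on its own with edgeR 4.0.16 in R 4.3.3 (filterByExpr with a minimum count of 10 and a minimum total of 15, TMM scaling, quasi-likelihood test, Benjamini-Hochberg adjustment over all tested genes, threshold 0.05). Levels are counts divided by total counts times the TMM factor, as CPM. The SE was the log2 fold change divided by the square root of F. With 3 libraries against 3 an exact permutation test of a single value cannot go below 0.10, so no such test was used. Labels do not say whether libraries are separate animals or cultures in every system, and p-values then measure the spread between these libraries. The methods were tested on simulated counts.

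Members and lists were chosen with earlier results of these data known. All 10 members are named, and of the other pathway genes at most 10 per system by smallest adjusted p below 0.05, with their values in the other systems; the rest enter as counts, and some genes this rule selects are not reported here. Same-numbered control and deletion libraries deviated together in lens (correlations 0.233, 0.133 and 0.523 over 12201 genes) and NLPCs (0.123, 0.320 and 0.145 over 20371), each above 0.1, so the replicate block was also fitted; the pairing comes from the data, not the labels. Some unlike-numbered pairs correlated more, Ctrl 2 with Qk-iCKO 1 at 0.279 and NLPC WT 1 with Qk-/- 3 at 0.232.

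Positions, exon lengths, neighbours and 3′ UTRs came from GENCODE vM21 (GRCm38, the build of mm10) and v44 on GRCh37 (the build of hg19), with 96.7% to 99.9% of tested genes placed; the transcript with the principal or MANE tag stood for each gene. The annotation release the authors counted with may differ. Alternatives were DESeq2 1.42.0, other scalings, other filters, a minimum fold of 1.5, the replicate block and leaving out each library.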

Additional observations from a re-analysis of the deposited data

Results flagged for a closer look

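For 8 of the genes reported here the effect of deletion differed between the mouse systems in the joint edgeR fit, given here as the log2 fold change in NLPCs less that in lens. In that fit 2 of 10 members and 10 of 49 other pathway genes passed, beside 8.53% of all 16675 genes. Among the members Sgms2 had -4.48 and Kdsr 0.77. Among the other pathway genes called in at least 1 of these systems, S1pr2 had -3.61, Gm2a -1.89, Gltp -1.23, Sgpl1 -1.01, S1pr1 -0.85 and Aldh3a2 -0.77. Gm2a and S1pr2 rose in the lens and fell in the libraries labelled Qk-/-, each past the threshold in both systems. In the lens, Sgms2 and S1pr2 passed the filter on low counts only through the Qk-iCKO group. The libraries labelled Qk-/- carried more Qk counts than WT, as given above.

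For 2 members every deletion library moved one way in NLPCs and the other way in HLE-B3. In either direction, 35.2% of all tested genes in NLPCs and 44.6% in HLE-B3 had groups that did not overlap. The share that parted in opposite directions was not counted. The log2 fold change in HLE-B3 less that in NLPCs was -1.04 for Kdsr and 0.72 for Degs1. Of 6 fits that left out a library, 1 kept the Kdsr call in NLPCs and 1 the DEGS1 call in HLE-B3. KDSR in HLE-B3 less the median of its 50 nearest genes was -0.01. These differences were not tested, since the tables are of different species.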

How the results depend on the processing

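In lens the members called numbered 2, and 1 under total counts alone, 1 with at least 10 counts in every sample (where Sgms2 was not testable), 1 with a minimum change of 1.5-fold and 1 to 3 when 1 library was left out. In NLPCs the 4 became 5 under DESeq2, with every gene of at least 1 count and with at least 10 counts in every sample, Sptlc1 being added each time, 0 at 1.5-fold and 1 to 5 when 1 library was left out, and in HLE-B3 the 8 became 2 at 1.5-fold and 5 to 9. Other pathway genes called went from 12 to 2 in lens, from 11 to 2 in NLPCs and from 17 to 3 in HLE-B3 at 1.5-fold, to 17 in NLPCs under DESeq2, and ranged from 3 to 11 in lens and 5 to 18 in NLPCs when 1 library was left out. Members whose effect differed between lens and NLPC numbered 2, and 1 under total counts alone, 1 with every gene of at least 1 count, 1 with at least 10 counts in every sample, 5 under DESeq2 and 1 to 3 when 1 library was left out. Over all genes the called count moved by more than 1.5 times in lens (1496) to 884 under total counts alone, 2521 with every gene of at least 1 count, 644 at 1.5-fold and 581 to 1709 when 1 library was left out, in NLPCs (2179) to 3826 under DESeq2, 366 at 1.5-fold and 681 to 3797 when 1 library was left out, and in HLE-B3 (6341) to 1108 at 1.5-fold. The cause was not tested, beyond the smaller samples and the stricter threshold of the settings themselves.

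Total counts alone moved the median log2 fold change of all lens genes to 0.29 and turned Kdsr (0.13), Cers2 (0.0095) and Degs1 (0.074) above 0, none of them called; the higher calls were then 768 of 884, against 1023 of 1496. Values near 0 that changed sign without a call were Smpd1 in lens (-0.0047 with every gene of at least 1 count, -0.0089 under DESeq2, -0.043 to 0.091 with 1 library left out), Cers2 in NLPCs (0.026 under total counts alone, 0.013 with at least 10 counts in every sample, -0.075 to 0.0077 with 1 library left out), Sgms1 in NLPCs (-0.0058 with every gene of at least 1 count, -0.073 to 0.062), Sgms2 in NLPCs (-0.13 to 0.024) and SPTLC1 in HLE-B3 (-0.052 to 0.021). ASAH1 in HLE-B3 turned to 0.34 less its 50 neighbours, an alternative chosen after seeing the data.

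The replicate block left 2 members called in lens and 4 in NLPCs. In HLE-B3, where same-numbered libraries had correlations of 0.061, 0.057 and -0.049 and share only a number, the replicate block left 6 of 8, without DEGS1 (adjusted p = 0.0543, edgeR) and ASAH1 (0.0585). It changed no other member's call within a system. Over all settings, single genes and numbers of genes called were labelled together, and 787 results were the same, 154 weaker and 13 stronger. For a single gene weaker or stronger means a call lost or gained, and for a number of genes a change of more than 1.5 times. A further 20 changed sign, and 5 HLE-B3 values less their neighbours moved by more than a margin set by their SE. SPTLC2 and SGMS1 in HLE-B3 passed under every alternative. Sgms2 in lens passed where it was tested, but the filter that does not rest on its high group, at least 10 counts in every sample, left it out. Depth limits Sgms2 in Ctrl lenses, where 13 reads in all carry the fold change.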

Other observations

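Within the lens, Gm2a and Psap, breakdown genes that rose, encode lysosomal proteins, whereas the lysosomal members Smpd1 and Asah1 had log2 fold changes of 0.02 and 0.19 and did not pass. In HLE-B3 the synthase gene UGT8 rose. The hydrolase gene GALC, which passed the filter only through the WT group, had fewer reads in QKI KO. The enzymes act on galactosylceramide in opposite directions. In NLPCs the log2 fold change of Ugt8a was -0.98 (adjusted p = 0.202, edgeR) and that of Galc -0.82 (adjusted p = 0.0570, edgeR). In the lens that of Galc was 0.29 (adjusted p = 0.568, edgeR). Of the 27 other pathway genes called in at least 1 system, 10 were called in at least 2, and B4galt5 was higher in lens and HLE-B3 and Samd8 lower in NLPCs and HLE-B3. No explanation of these values was tested.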
